A study of Mus musculus with 16 samples.

Results

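The response of female wild-type (WT) mouse tracheal epithelial cell cultures (MTECs) to house dust mite (HDM) extract was described from 4 RNA-seq libraries, 2 of naive cultures and 2 of HDM-treated cultures, out of 16 in the series. These 4 were taken by their labels for sex, genotype and treatment. The other 12 libraries came from male WT cultures and from cultures of both sexes that lacked LMAN1 (labelled KO). Outside the final comparison they served only in the gene filter, the scaling and the estimate of the spread between replicates. The study asked how LMAN1, a cargo receptor that also binds mite glycoproteins, acts in allergic airway disease, and used the cultures to look at the epithelium alone.

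MTECs are primary cells grown on porous inserts with medium below and air above until they differentiate. All groups were grown the same way, on inserts coated with matrix laid down by 3T3 fibroblasts. The mice were on a C57BL/6J background, with WT animals taken as littermates. HDM cultures received 20 µg/ml of extract overnight and naive cultures received none. Tracheas were pooled for the cultures, and the labels call the 2 libraries of a group biological replicates without naming the animals. The age of the donor mice was not given in the sources used here. With 2 cultures per group, p-values rest on the spread within groups, pooled over all 16 libraries. That spread may be partly technical and need not match the spread between the female WT cultures.

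The tracheal surface is lined by basal cells, which are the progenitors, by club and goblet cells, which secrete antimicrobial proteins and mucins and metabolise inhaled chemicals, and by multiciliated cells, which move the mucus. Mite extract carries proteases, lipid-binding allergens, chitin and bacterial products that airway epithelium senses through protease-activated, Toll-like and lectin receptors. Sensing is known to lead to NF-kB signalling and to release of chemokines and of the alarmins IL-33, TSLP and IL-25.

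The naive libraries held 27035993 and 43442188 counts on genes and the HDM libraries held 24842240 and 21860698. Xist stood between 2592 and 5603 counts in these libraries. Each of 4 Y-linked genes had 10 to 34 counts in the naive libraries and 1 to 14 counts in the HDM libraries. The source of these Y-linked counts was not tested. Mitochondrial transcripts took 0.675% and 0.608% of counts in the naive libraries and 2.041% and 2.495% in the HDM libraries. The share of ribosomal protein transcripts lay between 3.43% and 3.76% in all 4. Levels below are CPM, the counts of a gene per 1000000 counts on genes, after TMM scaling, a scaling that equalises most genes between libraries, and are given as naive replicates 1 and 2, then HDM replicates 1 and 2.

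Of 15993 genes tested with edgeR's quasi-likelihood test, 6887 (43.1%) were called at a Benjamini-Hochberg adjusted p under 0.05. These were 3297 higher (20.6%) and 3590 lower (22.4%) with HDM. A change of at least 2-fold was seen in 1345 called genes that rose (8.41%) and 1348 that fell (8.43%). A change of at least 4-fold was seen in 538 called genes that rose and 689 that fell, and one of at least 16-fold in 89 and 223. The median log2 fold change of all tested genes was -0.0243. The count fell to 4576 without the first naive library and to 3612 without both libraries numbered 2, which hold most of the fibroblast transcripts described below. In those fits a single library stood for a group and was taken to vary like the other groups.

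**Figure D1:**
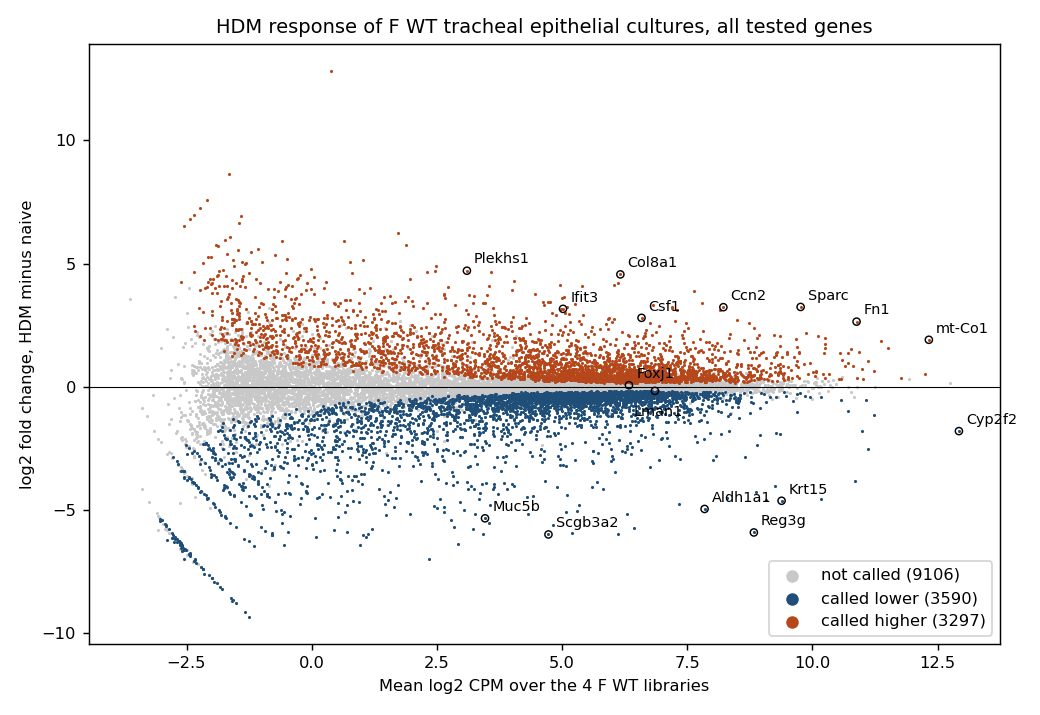
Each point is 1 of 15993 tested genes, with its mean log2 CPM over the 4 female WT libraries on the x axis and its log2 fold change (HDM minus naive) on the y axis. Called genes (adjusted p under 0.05) are blue where lower and orange where higher, and 16 genes named in the text are circled.

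The marker lists placed the cultures as airway epithelium of basal and secretory character. In the naive libraries the summed level of 6 club cell markers was 23730 and 17950 CPM and that of 6 basal cell markers was 9614 and 10490 CPM. Most reads of the club list came from Cyp2f2, while Scgb1a1, its best known member, stood at only 2.18 and 3.75 CPM. Multiciliated markers summed to 99.8 and 139 CPM, and of these Foxj1 alone held 69.5 and 89.4 CPM. With HDM the club sum was 4907 and 3990 CPM, the goblet sum went from 168 and 140 to 3.83 and 4.03 CPM, and the basal sum was 4158 and 2140 CPM. Multiciliated markers were then at 88.2 and 97.3 CPM. Rare cell markers stood at 2.80 and 1.69 against 0.208 and 0.474 CPM for ionocytes, at 77.1 and 56.6 against 133 and 102 CPM for tuft cells and at 5.12 and 4.68 against 6.08 and 11.65 CPM for neuroendocrine cells. Squamous markers stood at 1208 and 1450 CPM in naive and 521 and 235 CPM in HDM libraries.

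Markers of non-epithelial cells were low but uneven. The 10 fibroblast markers summed to 35.0 and 590 CPM in the naive and 74.5 and 646 CPM in the HDM libraries. These sums followed the replicate number more than the treatment. Dcn, Lum and Prrx1, 3 of the 10 (30.0%, against 20.6% over all tested genes), were called higher with HDM. Dcn overlapped between groups, at 2.00 and 2.56 CPM (naive) against 2.25 and 45.9 CPM (HDM). Without the second HDM library the log2 fold changes of Dcn, Lum and Prrx1 were -0.0285, 0.8145 and 1.435. Col1a1, the fibrillar collagen chain, stood at 9.12 and 249 CPM (naive) against 3.12 and 47.1 CPM (HDM). Smooth muscle markers, almost all from Acta2, were 60.3 and 146 CPM against 284 and 464 CPM. Cartilage markers were 1.45 and 1.93 CPM against 63.6 and 8.10 CPM, nearly all Col2a1. Leukocyte markers summed to 88.2 and 64.1 CPM against 46.9 and 45.5 CPM. Most of this came from the macrophage genes Adgre1 at 31.6 and 18.4 CPM (naive) against 20.6 and 19.1 CPM (HDM), Csf1r at 27.0 and 21.7 CPM (naive) against 15.1 and 13.9 CPM (HDM) and Cd68 at 23.5 and 19.4 CPM (naive) against 8.66 and 8.43 CPM (HDM), of which Csf1r and Cd68 were called lower. The adjusted p of Csf1r was 0.104 without the second HDM library and 0.125 without the first naive library, the highest over the settings. The lymphocyte and neutrophil markers were at or near 0, with Cd3e at 0 counts and Cd79a and S100a8 at no more than 1 count per library. Endothelial markers stayed between 1.46 and 2.29 CPM. In bulk RNA, fewer cells of a type and less RNA per cell cannot be told apart.

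**Figure D2:**
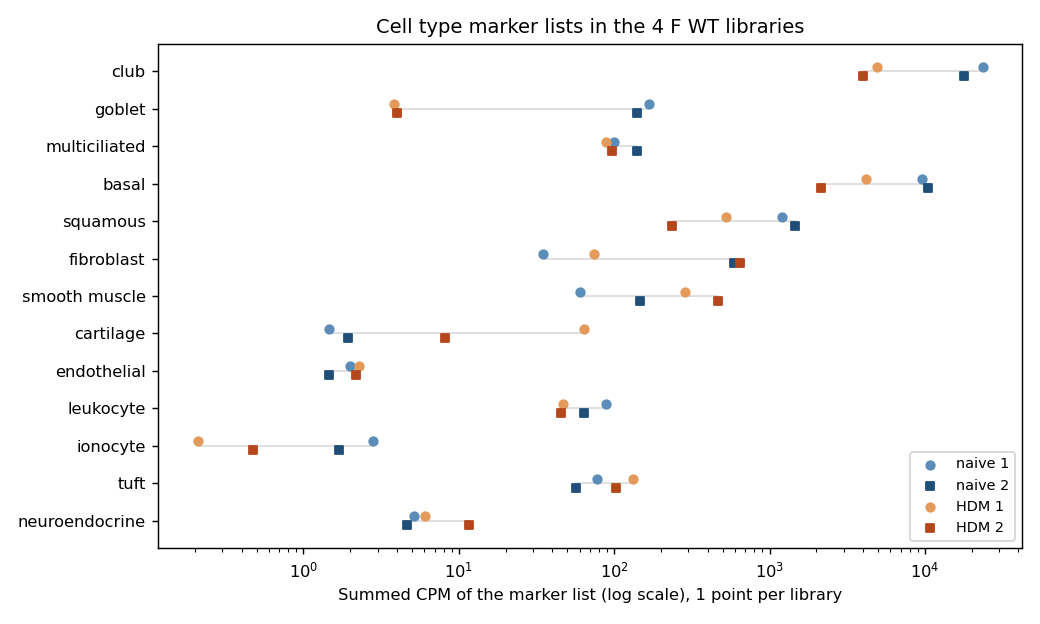
Summed CPM of 13 marker lists (rows, log axis), with 1 point for each of the 4 female WT libraries. Goblet sums fall from above 140 to about 4 CPM with HDM, and fibroblast sums are 590 and 646 CPM in the libraries numbered 2 and below 75 CPM in those numbered 1.

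Of the 12 largest falls described below, those of Scgb3a2 and Aqp4 came first, but their promoters are not shown. The promoters of other genes with large changes are shown first, since these genes anchor the account that follows. They belong to 3 of the largest rises and 3 of the largest falls, and each runs from 250 bases before to 50 bases after the start site, 5′ to 3′, on GRCm38.p6. Capitals mark matches on either strand to TGANTCA (AP-1), GGAATG (TEAD), GAAA and GAAA with any 2 bases between (an interferon response element), GGGA and TTCC with any 2 bases between (NF-kB), TGTTTAC (FOXA) or CAAGTG (NKX2-1).
Plekhs1, GRCm38 chr19:56461387-56461686, plus strand: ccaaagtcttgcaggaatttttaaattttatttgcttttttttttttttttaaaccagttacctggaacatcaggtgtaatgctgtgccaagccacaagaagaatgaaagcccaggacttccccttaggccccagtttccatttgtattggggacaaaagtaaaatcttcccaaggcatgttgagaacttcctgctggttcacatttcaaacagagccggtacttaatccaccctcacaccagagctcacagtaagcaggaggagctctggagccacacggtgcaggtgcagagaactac
Rapgef3, GRCm38 chr15:97767617-97767916, minus strand: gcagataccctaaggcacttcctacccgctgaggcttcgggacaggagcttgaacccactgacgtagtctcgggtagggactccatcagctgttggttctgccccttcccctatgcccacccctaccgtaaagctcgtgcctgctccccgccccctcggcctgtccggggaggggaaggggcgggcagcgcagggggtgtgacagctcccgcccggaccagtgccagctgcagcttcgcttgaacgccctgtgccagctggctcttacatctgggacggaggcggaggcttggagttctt
Col8a1, GRCm38 chr16:57754688-57754987, minus strand: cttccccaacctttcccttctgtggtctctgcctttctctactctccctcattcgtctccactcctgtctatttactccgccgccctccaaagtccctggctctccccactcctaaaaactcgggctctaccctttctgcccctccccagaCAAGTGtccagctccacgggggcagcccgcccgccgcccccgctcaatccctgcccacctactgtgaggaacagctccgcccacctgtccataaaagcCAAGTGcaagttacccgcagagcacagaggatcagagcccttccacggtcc
Bpifa1, GRCm38 chr2:154142630-154142929, plus strand: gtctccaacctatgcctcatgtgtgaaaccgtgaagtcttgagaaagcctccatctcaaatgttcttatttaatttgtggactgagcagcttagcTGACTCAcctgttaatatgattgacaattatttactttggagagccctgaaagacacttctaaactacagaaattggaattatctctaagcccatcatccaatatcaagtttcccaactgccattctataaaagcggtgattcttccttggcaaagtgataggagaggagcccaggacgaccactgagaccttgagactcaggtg
Scgb3a1, GRCm38 chr11:49663345-49663644, plus strand: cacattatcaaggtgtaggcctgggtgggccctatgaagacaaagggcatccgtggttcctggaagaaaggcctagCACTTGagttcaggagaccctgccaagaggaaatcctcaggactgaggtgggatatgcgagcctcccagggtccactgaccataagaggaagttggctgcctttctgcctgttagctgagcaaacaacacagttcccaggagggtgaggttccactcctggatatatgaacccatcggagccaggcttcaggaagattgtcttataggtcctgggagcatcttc
Reg3g, GRCm38 chr6:78468825-78469124, minus strand: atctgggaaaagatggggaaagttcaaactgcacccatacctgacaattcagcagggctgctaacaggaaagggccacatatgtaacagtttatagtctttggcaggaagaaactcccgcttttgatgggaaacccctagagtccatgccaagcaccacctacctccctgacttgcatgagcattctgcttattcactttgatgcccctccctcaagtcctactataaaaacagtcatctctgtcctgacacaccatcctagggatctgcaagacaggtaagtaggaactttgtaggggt
No 2 of these motifs overlapped in the windows shown. Over 27025 genes with a RefSeq promoter, the share with at least 1 match was 7.93% for TGANTCA, 14.6% for GGAATG, 3.49% for the interferon response letters, 1.43% for the NF-kB letters, 3.55% for TGTTTAC and 13.5% for CAAGTG. Of the 3 rising genes, Col8a1 held 2 matches to the NKX2-1 letters. Of the 3 falling genes, Bpifa1 held 1 match to AP-1 and Scgb3a1 held 1 to NKX2-1. Plekhs1, Rapgef3 and Reg3g held none, which says only that these letters are not in these windows.

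The 12 largest falls among genes of a mean log2 CPM of at least 3 included secreted proteins of the airway surface and the water channel Aqp4. Scgb3a2, a secretoglobin of club cells, read 213 and 207 CPM in the naive libraries and 3.25 and 3.32 CPM in the HDM libraries (log2 fold change -6.00 ± 0.52, adjusted p = 6.54e-06). Its relative Scgb3a1 went from 338 and 238 CPM to 4.54 and 4.83 CPM (log2 fold change -5.94 ± 0.51, adjusted p = 6.20e-06). Bpifa1, an antimicrobial surfactant protein also called SPLUNC1, went from 93.9 and 72.6 CPM to 1.41 and 1.23 CPM (log2 fold change -5.96 ± 0.85, adjusted p = 0.000211). Reg3g, a C-type lectin that kills Gram-positive bacteria, went from 4026 and 3165 CPM to 46.6 and 72.4 CPM (log2 fold change -5.92 ± 0.34, adjusted p = 4.43e-07). Aqp4, a basolateral water channel with the second largest of these falls, went from 586 and 519 CPM to 7.53 and 10.1 CPM (log2 fold change -5.97 ± 0.39, adjusted p = 8.56e-07). In each of these genes both HDM libraries lay below both naive libraries, which the rule for choosing the 12 required.

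Other genes among the 12 largest falls serve mucus assembly and metabolism. Agr2, a disulfide isomerase needed to fold mucins, read 76.5 and 78.8 CPM in the naive libraries and 1.498 and 1.85 CPM in the HDM libraries (log2 fold change -5.54 ± 0.30, adjusted p = 2.81e-07). Muc5b, the gel-forming mucin of resting airways, went from 83.7 and 55.8 CPM to 1.58 and 1.85 CPM (log2 fold change -5.34 ± 0.60, adjusted p = 3.88e-05). Cyp2a5, a cytochrome P450, was at 713 and 567 CPM (naive) against 10.4 and 13.5 CPM (HDM). The retinol dehydrogenase Dhrs9, the protease inhibitor A2ml1, the acyl-CoA synthetase Acsm1 and the cysteine dioxygenase Cdo1 made up the rest, with log2 fold changes of -5.77, -5.61, -5.18 and -5.17. These 12 were chosen for their size of change, so their values are a description. Groups that did not overlap were common, at 39.1% of all tested genes in the direction of lower levels and 35.5% in that of higher levels.

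The largest rises were of matrix, adhesion and signalling genes and were smaller on the log scale than the falls. Plekhs1, a pleckstrin homology domain protein, went from 0.836 and 2.63 CPM to 51.4 and 43.1 CPM (log2 fold change 4.71 ± 0.60, adjusted p = 0.000103). Rapgef3, which encodes the cyclic AMP sensor EPAC1, read 2.29 and 2.41 CPM in the naive libraries and 56.0 and 62.9 CPM in the HDM libraries (log2 fold change 4.66 ± 0.40, adjusted p = 6.06e-06). Col8a1, a short-chain collagen, was at 8.25 and 23.2 CPM (naive) against 301 and 455 CPM (HDM) (log2 fold change 4.56 ± 0.52, adjusted p = 4.64e-05). The metalloprotease Pappa, which frees insulin-like growth factors, read 1.42 and 7.44 CPM in the naive libraries and 50.9 and 130.4 CPM in the HDM libraries, and Nid1, a linker of laminin and collagen IV, read 3.09 and 23.7 CPM in the naive libraries and 125 and 339.7 CPM in the HDM libraries. Both genes were more than 2-fold higher in replicate 2 than in replicate 1 of either group, but no HDM library lay as low as a naive library.

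The other 7 rising genes spanned several functions. Cldn6, a claudin of embryonic epithelium, went from 9.59 and 22.7 CPM to 269 and 309.6 CPM. Lgals1, a galactoside-binding lectin, went from 29.9 and 80.5 CPM to 654 and 1010.0 CPM. Rgs4, which damps G protein signalling, went from 7.59 and 7.37 CPM to 119 and 140.1 CPM, with near-equal replicates. The xylosyltransferase Gxylt2, the diacylglycerol kinase Dgkk, the protocadherin Pcdh9 and the creatine kinase Ckb rose by log2 fold changes of 4.20, 4.08, 3.91 and 3.78. All 24 genes kept their call and direction under the 13 alternative settings.

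**Figure D3:**
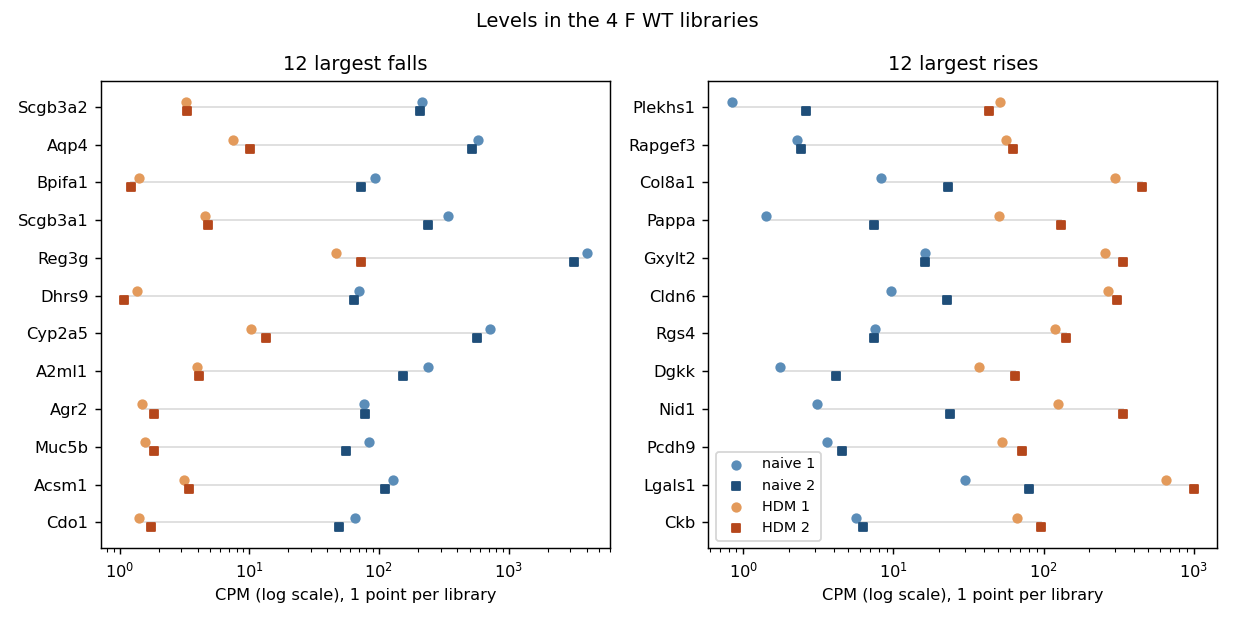
CPM (log axis) of the 12 genes with the largest falls (left) and the 12 with the largest rises (right), with 1 point for each of the 4 female WT libraries. The naive and HDM points do not overlap in any of the 24 genes, which the rule for choosing them required.

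Below the level that this rule asked for, a few genes went between 0 and a clear signal, and these were chosen after their values were seen. Inmt, an N-methyltransferase of indole amines, had 0 counts in both naive libraries and 362 and 933 counts in the HDM libraries. Against a floor of 3 counts per library, it was at least 336-fold higher with HDM. Gdf6, a bone morphogenetic protein, had 0 and 0 against 22 and 50 counts and was at least 18.6-fold higher. Vsig1, a junctional immunoglobulin protein, had 59 and 140 counts in naive libraries and 0 in both HDM libraries and was at least 19.8-fold lower.

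Club and goblet secretory genes fell as a group. Of 38 tested members of this list, 28 were called lower and 3 higher, with a median log2 fold change of -2.70. Over all tested genes 22.4% were lower and 20.6% higher, the shares against which the counts of each list stand. By role, 7 of 9 club cell proteins, 9 of 14 secreted defence proteins, all 6 mucins and 6 of 9 goblet regulators were lower. Muc1, a membrane mucin, went from 517 and 421 CPM to 11.1 and 15.2 CPM (log2 fold change -5.16 ± 0.25, adjusted p = 1.38e-07). Cbr2, a carbonyl reductase abundant in club cells, read 6373 and 4819.6 CPM in the naive libraries and 253 and 226 CPM in the HDM libraries, and Ltf, the iron-binding lactoferrin, read 7942 and 6092 CPM in the naive libraries and 556 and 439 CPM in the HDM libraries. Spdef, the transcription factor that drives goblet differentiation, went from 3.92 and 3.17 CPM to 0.208 and 0.142 CPM (adjusted p = 6.92e-06). Muc5ac, the mucin that rises in allergic airways in vivo, was low throughout, at 2.80 and 2.11 CPM (naive) against 0.416 and 0.189 CPM (HDM), and was called lower (adjusted p = 0.000158).

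The exceptions in this list were 2 defence proteins and 1 regulator. Lcn2, a siderophore-binding protein, read 199 and 129 CPM in the naive libraries and 281 and 672 CPM in the HDM libraries (log2 fold change 1.54 ± 0.34, adjusted p = 0.00349), but without both libraries numbered 2 its adjusted p was 0.194, the highest over 13 settings. Slpi, a protease inhibitor, read 41.8 and 40.5 CPM in the naive libraries and 60.3 and 103 CPM in the HDM libraries, and its adjusted p passed 0.05 in 4 of 13 settings, with a highest value of 0.278. Foxa2, a pioneer factor of airway epithelium, read 5.01 and 5.37 CPM in the naive libraries and 14.1 and 7.48 CPM in the HDM libraries, with an adjusted p of up to 0.0986 over the settings. Without the first naive library only 1 of the 3 was still called higher. Chil4, a chitinase-like protein of activated airways, went the other way, from 65.5 and 42.7 CPM to 0.333 and 0.521 CPM (adjusted p = 1.29e-05).

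Multiciliated cell genes were low in these cultures and most fell further. Of 45 tested members, 35 were called lower and 0 higher, with a median log2 fold change of -3.34, or -3.30 with genes at 0 set to their bound. Foxj1, the master regulator of motile cilia, did not follow: it read 69.5 and 89.4 CPM in the naive libraries and 79.1 and 86.6 CPM in the HDM libraries (log2 fold change 0.06 ± 0.34, adjusted p = 0.908). Upstream regulators did fall, Gmnc from 2.22 and 2.47 CPM to 0.0416 and 0 CPM (adjusted p = 9.24e-06) and Trp73, the p53 relative required for ciliogenesis, from 5.70 and 5.17 CPM to 0.375 and 0.332 CPM (adjusted p = 8.88e-06). Dnali1, a dynein light chain, went from 5.27 and 7.60 CPM to 0.541 and 0.568 CPM, and Rsph9, a radial spoke protein, went from 11.8 and 10.6 CPM to 3.54 and 4.50 CPM. Most axonemal genes had under 10 CPM in naive cultures, and with at least 10 counts asked of every library 13 were called lower. Without both libraries numbered 2, 10 were called lower.

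Genes of xenobiotic metabolism fell in both oxidation and conjugation steps. Of 40 tested members, 30 were called lower and 4 higher, with a median log2 fold change of -2.56. Aldh1a1, which makes retinoic acid and clears aldehydes, went from 1310.5 and 1261 CPM to 42.3 and 40.1 CPM (log2 fold change -4.96 ± 0.14, adjusted p = 5.00e-09). Aldh1a7 went from 249.8 and 205 CPM to 6.28 and 7.34 CPM, the carboxylesterase Ces1d from 1646 and 1396 CPM to 77.6 and 55.8 CPM and the aldo-keto reductase Akr1c18 from 97.6 and 103 CPM to 3.50 and 5.87 CPM. Cyp2f2, which bioactivates naphthalene in club cells, kept a high level at 16711 and 12611 CPM (naive) against 4645 and 3754 CPM (HDM) (log2 fold change -1.80 ± 0.19, adjusted p = 2.27e-05). Cyp1b1, a target of the aryl hydrocarbon receptor, rose from 106 and 115 CPM to 268 and 338 CPM (log2 fold change 1.45 ± 0.23, adjusted p = 0.000493), while Cyp1a1, another target, had 0, 0, 3 and 2 counts and was not tested. The number higher was 2 without the first naive library or the second HDM library and 1 without both libraries numbered 2. Aldh1a1 and Aldh1a7, Cyp2a5, Ces1d, Akr1c18, Chil4 and Ifit3 have close paralogs, so reads may have been divided between copies and their separate levels are uncertain.

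Basal cell genes divided. Of 19 tested members, 9 were called lower and 5 higher, with a median log2 fold change of -0.434. Krt15 fell from 3628 and 3198 CPM to 179 and 95.9 CPM (log2 fold change -4.63 ± 0.31, adjusted p = 9.52e-07), Trp63, the regulator of basal identity, from 219 and 202 CPM to 64.2 and 36.7 CPM (log2 fold change -2.06 ± 0.20, adjusted p = 1.66e-05) and the neurotrophin receptor Ngfr from 104 and 92.2 CPM to 12.4 and 9.28 CPM (log2 fold change -3.17 ± 0.16, adjusted p = 2.05e-07). Krt5 was lower at 3688 and 4318 CPM (naive) against 1702 and 628 CPM (HDM) (adjusted p = 0.00152), whereas Krt14 overlapped between groups at 1823 and 2523 CPM (naive) against 2018 and 1199 CPM (HDM) (adjusted p = 0.496). Members that rose were the hyaluronan receptor Cd44, from 161 and 224 CPM to 472 and 383 CPM (adjusted p = 0.0028), the hemidesmosomal integrin Itgb4, from 847 and 931 CPM to 1457 and 1196 CPM (adjusted p = 0.00302), and Egfr, from 72.7 and 85.1 CPM to 102 and 106 CPM (adjusted p = 0.00215). The number called higher was 3 without the first naive or the second HDM library.

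Squamous and cornified genes were called lower more often than higher. Of 29 tested members, 4 were called higher (13.8%) and 11 lower (37.9%), with a median of -0.399. The shares over all tested genes were 20.6% and 22.4%. Krt13 and Scel, markers of suprabasal layers, went from 58.6 and 54.0 CPM to 8.91 and 7.06 CPM (adjusted p = 0.000306) and from 68.8 and 71.6 CPM to 11.1 and 7.10 CPM (adjusted p = 6.13e-07). Ecm1, a secreted matrix protein, rose from 1582 and 1825 CPM to 5665 and 4486 CPM (log2 fold change 1.57 ± 0.22, adjusted p = 0.000163), and the keratin Krt80 rose from 8.10 and 11.2 CPM to 35.0 and 37.7 CPM (adjusted p = 0.00178). Ivl, the cornified envelope protein involucrin, read 2.51 and 7.37 CPM in the naive libraries and 15.7 and 12.7 CPM in the HDM libraries (adjusted p = 0.0343) and was called in 9 of 13 settings. The number lower was 7 without the first naive library and 5 without both libraries numbered 2.

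Of 17 tested ion and water transport genes, 5 were called higher and 8 lower, with a median of -0.808, and the classes differed in their counts. In sodium, potassium and water transport 6 of 8 were lower and 1 higher. The water channels Aqp3, Aqp4 and Aqp5 all fell, Aqp5 from 2783 and 2239 CPM to 180.1 and 124 CPM (log2 fold change -4.05 ± 0.29, adjusted p = 1.71e-06) and Aqp3 from 841 and 837 CPM to 31.2 and 30.9 CPM (log2 fold change -4.76 ± 0.20, adjusted p = 6.66e-08). Of 7 tested chloride and bicarbonate genes, 4 rose and 0 fell. These included the calcium-activated chloride channel Ano1, from 109.9 and 139 CPM to 313 and 273 CPM (log2 fold change 1.24 ± 0.19, adjusted p = 0.000308), the basolateral cotransporter Slc12a2, from 356 and 423 CPM to 1234 and 839 CPM (log2 fold change 1.41 ± 0.26, adjusted p = 0.00129), and the bicarbonate cotransporter Slc4a4, from 45.8 and 50.1 CPM to 227 and 204 CPM (log2 fold change 2.17 ± 0.30, adjusted p = 0.000172). Cftr was near 1 CPM in every library, at 1.05 and 1.03 CPM (naive) against 1.41 and 1.23 CPM (HDM) (adjusted p = 0.451). Foxi1, the regulator of ionocytes, had 0 counts in both HDM libraries and was at least 3.58-fold lower.

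Matrix and adhesion genes rose. Of 43 tested members, 27 were called higher and 0 lower, with a median log2 fold change of 1.37 against -0.0243 over all genes. In this list 12 of 17 basement membrane and matrix genes, 7 of 9 integrins and 8 of 17 proteolysis genes were higher. Fn1, fibronectin, went from 536 and 1045 CPM to 3634 and 6234 CPM (log2 fold change 2.64 ± 0.36, adjusted p = 0.000147) and Sparc, a collagen-binding matricellular protein, from 174 and 425 CPM to 2336 and 3320.1 CPM (log2 fold change 3.24 ± 0.45, adjusted p = 0.000175). Hspg2, the heparan sulfate proteoglycan perlecan, went from 52.6 and 86.0 CPM to 750.4 and 734 CPM (log2 fold change 3.42 ± 0.23, adjusted p = 9.94e-07). The integrin chains Itgav and Itgb5, which together bind vitronectin, went from 129 and 137 CPM to 292 and 294 CPM (adjusted p = 9.94e-07) and from 159 and 168 CPM to 437 and 597 CPM (adjusted p = 2.65e-06). Timp2, an inhibitor of matrix metalloproteases, went from 541 and 517 CPM to 1288 and 1495 CPM (adjusted p = 6.05e-07).

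Beside these rises, fibroblast marker sums were 35.0, 590, 74.5 and 646 CPM in the 4 libraries. Without both libraries numbered 2, which leaves fibroblast sums of 35.0 and 74.5 CPM, 25 members of the list were called higher and 0 lower. Smooth muscle marker sums were 60.3, 146, 284 and 464 CPM, mostly from Acta2 at 52.3 and 127 CPM (naive) against 272 and 441 CPM (HDM) (adjusted p = 0.0796), and 0 of 5 tested members were called. The part of either cell type in the rise of matrix genes was not tested.

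TGF-beta and mesenchymal genes rose more often than they fell. Of 29 tested members, 16 were called higher and 5 lower, with a median of 1.00. The number higher was 10 without the first naive library and 14 without both libraries numbered 2. Ccn1 and Ccn2, matricellular targets of TGF-beta and of the YAP coactivator, went from 43.6 and 65.7 CPM to 375 and 578 CPM (log2 fold change 3.12 ± 0.33, adjusted p = 2.73e-05) and from 77.2 and 123 CPM to 730.5 and 1147 CPM (log2 fold change 3.23 ± 0.34, adjusted p = 2.74e-05). Among ligands, Tgfb3 went from 42.4 and 50.3 CPM to 114 and 121 CPM (adjusted p = 1.09e-05) and Inhba, a subunit of activin A, from 8.72 and 27.0 CPM to 73.0 and 156 CPM (adjusted p = 0.00159), while Tgfb2 went from 59.4 and 59.7 CPM to 45.0 and 35.6 CPM (adjusted p = 0.00292, and 0.0901 without both libraries numbered 2). Smad7, an inhibitory SMAD, rose from 20.2 and 21.4 CPM to 52.2 and 65.0 CPM (adjusted p = 6.69e-06) and the SMAD-binding gene Pmepa1 from 94.7 and 129.9 CPM to 336 and 523 CPM (adjusted p = 3.06e-05).

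Cadherins of both kinds were called higher. Cdh2, the mesenchymal N-cadherin, went from 1.34 and 1.91 CPM to 19.4 and 35.8 CPM (log2 fold change 4.06 ± 0.37, adjusted p = 9.91e-06), and Cdh1, the epithelial E-cadherin, was at 1359.6 and 1312 CPM (naive) against 1802 and 1524 CPM (HDM) (adjusted p = 0.0153). The call of Cdh1 was lost in 6 of 13 settings, with an adjusted p of up to 0.150. Vim, an intermediate filament protein, read 17.8 and 53.0 CPM in the naive libraries and 67.6 and 190.2 CPM in the HDM libraries (adjusted p = 0.0204). Like the fibroblast sum, Vim was higher in replicate 2 than in replicate 1 of either group, but unlike that sum it did not overlap between groups. Its call was lost without the second HDM library (adjusted p = 0.263) or the first naive library (adjusted p = 0.143). Twist1, a mesenchymal transcription factor, went from 0.363 and 0.854 CPM to 3.37 and 7.34 CPM (adjusted p = 0.00182). Targets that fell included Id1, from 23.1 and 30.8 CPM to 4.79 and 11.7 CPM (adjusted p = 0.00571), and the pseudoreceptor Bambi, from 4.795 and 4.02 CPM to 1.41 and 1.61 CPM (adjusted p = 0.000239). The number lower was 3 without the first or second HDM library or without the second naive library.

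**Figure D4:**
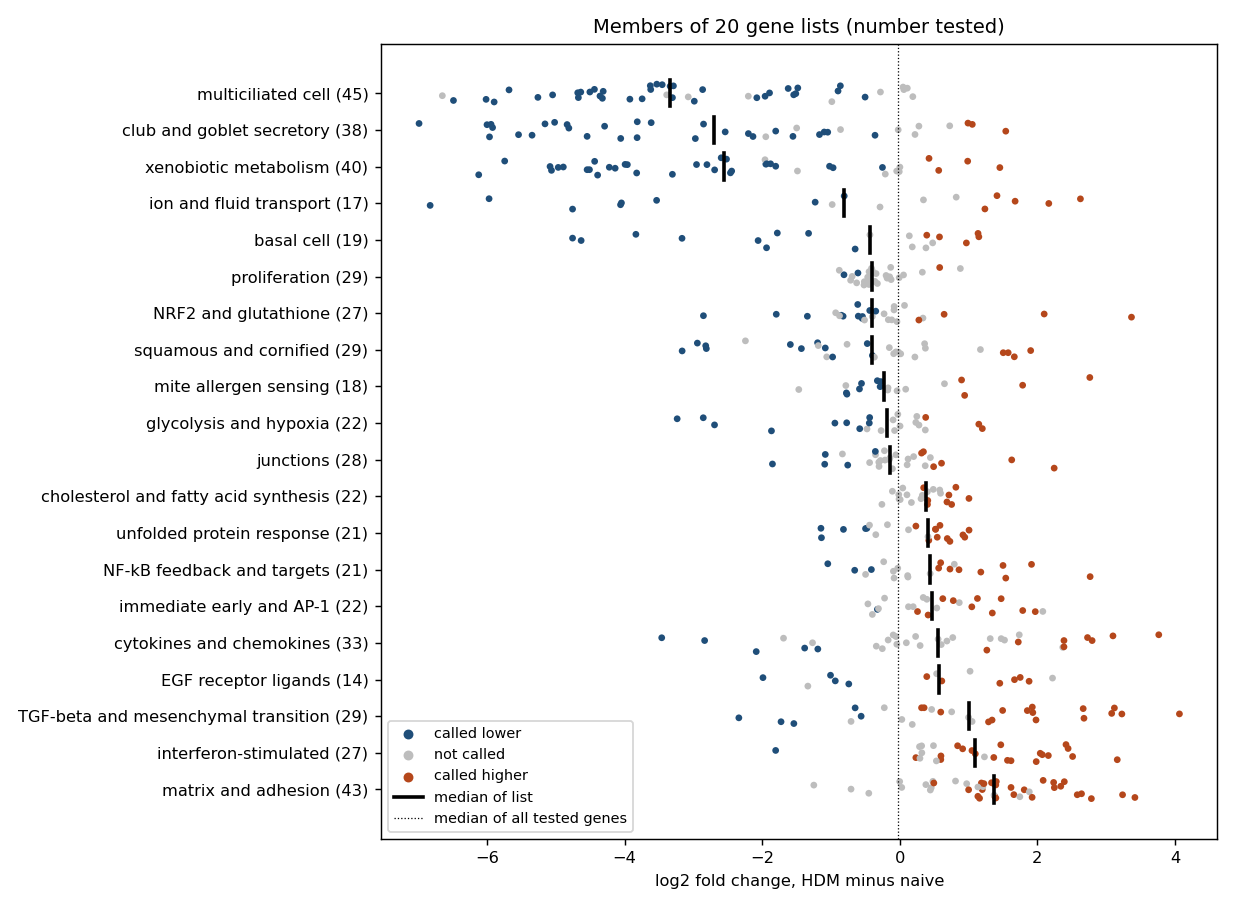
log2 fold change (HDM minus naive, x axis) of every tested member of 20 gene lists (rows, with the number tested), with blue for called lower, orange for called higher and grey for not called. Black bars are list medians, which run from -3.34 for multiciliated genes to 1.37 for matrix and adhesion genes, and the dotted line is the median of all tested genes.

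None of the 3 alarmins was called higher. Il33 read 29.7 and 65.8 CPM in the naive libraries and 16.8 and 20.1 CPM in the HDM libraries and was called lower (log2 fold change -1.38 ± 0.46, adjusted p = 0.0299). Its naive replicates differed more than 2-fold, and the call was lost in 4 of 13 settings, among them leaving out the second naive library (log2 fold change -0.70, adjusted p = 0.294). The adjusted p was also above 0.05 without the first HDM library (0.127) or the second (0.0933), and its highest value over the settings was 0.363. Tslp had 0 and 0 counts in naive and 1 and 5 counts in HDM libraries, and Il25 had 0, 2, 0 and 0, so that neither could be tested at this depth. Lman1, the gene deleted in the KO groups, read 123 and 123 CPM in the naive libraries and 117 and 101 CPM in the HDM libraries (log2 fold change -0.17 ± 0.43, adjusted p = 0.78).

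Of 33 tested cytokine and chemokine genes, 8 were called higher (24.2%) and 5 lower (15.2%), with a median of 0.557. The share higher was close to the 20.6% over all tested genes and the share lower was below the 22.4%. Growth factors of macrophages were among the rises. Csf1 and Il34, both ligands of the CSF1 receptor, went from 34.6 and 38.8 CPM to 214 and 296 CPM (log2 fold change 2.79 ± 0.24, adjusted p = 5.84e-06) and from 6.72 and 6.07 CPM to 27.6 and 39.2 CPM (log2 fold change 2.39 ± 0.21, adjusted p = 6.38e-06). Lif, a cytokine of the IL-6 family, went from 31.5 and 37.4 CPM to 98.5 and 129 CPM (adjusted p = 0.00271), and without both libraries numbered 2 its adjusted p was 0.0569, the highest over the settings. Il23a, the p19 subunit of IL-23, rose from a very low level, from 0.218 and 0.292 CPM to 2.16 and 5.02 CPM (adjusted p = 0.000143).

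Chemokines did not move as one group. Cxcl16, a ligand of CXCR6, went from 99.0 and 98.3 CPM to 219.6 and 255 CPM (adjusted p = 2.09e-05), and Cxcl1, a neutrophil attractant, went from 1.63 and 3.30 CPM to 15.0 and 18.3 CPM (adjusted p = 0.00343). Cxcl10, induced by interferons, read 8.06 and 7.40 CPM in the naive libraries and 40.9 and 39.8 CPM in the HDM libraries (adjusted p = 0.0159), but its call was lost without the second HDM library (adjusted p = 0.0501) or either naive library (0.0778 and 0.0836), with a highest value of 0.156 over the settings. Cxcl17, a mucosal chemokine, fell from 244 and 229 CPM to 31.7 and 11.0 CPM (log2 fold change -3.46 ± 0.38, adjusted p = 3.15e-05), as did Cxcl15, or lungkine, from 138 and 93.6 CPM to 36.8 and 17.4 CPM (adjusted p = 0.0042, and 0.0513 without both libraries numbered 2), and Ccl28, from 5.41 and 5.42 CPM to 0.707 and 0.805 CPM (adjusted p = 0.000906). Ccl20, which draws dendritic cells and is induced by mite extract in other airway cells, stood at 0.436 and 0.787 CPM (naive) against 1.08 and 0.758 CPM (HDM) (adjusted p = 0.689). Csf3 was lower at 8.25 and 8.05 CPM (naive) against 3.62 and 3.50 CPM (HDM) (adjusted p = 0.0112), which was not called without the second HDM library (adjusted p = 0.0642, highest value over the settings 0.122). Csf2 read 0.472 and 2.09 CPM in the naive libraries and 2.91 and 4.45 CPM in the HDM libraries (adjusted p = 0.0828) and Tnf 4.21 and 5.21 CPM in the naive libraries and 7.66 and 8.48 CPM in the HDM libraries (adjusted p = 0.275). The number of genes lower was 3 without the second HDM library, and with no filter on low counts the number higher was 14.

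NF-kB genes moved moderately, with 9 of 21 called higher, 3 lower and a median of 0.441. Tnfaip3, the inhibitory deubiquitinase A20, rose most, from 20.9 and 25.8 CPM to 142 and 176 CPM (log2 fold change 2.77 ± 0.37, adjusted p = 0.000143). Subunits of the alternative pathway rose, Relb from 32.0 and 33.1 CPM to 56.9 and 61.4 CPM (adjusted p = 8.41e-05) and Nfkb2 from 93.7 and 93.1 CPM to 140.1 and 136 CPM (adjusted p = 0.000375), while Rel fell from 25.1 and 22.4 CPM to 15.9 and 14.3 CPM (adjusted p = 0.000883). C3, the central complement component, went from 139 and 122 CPM to 251 and 339 CPM (adjusted p = 0.000163). Socs3, which restrains IL-6 signalling, went from 20.5 and 21.8 CPM to 9.36 and 11.1 CPM (adjusted p = 0.00114).

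Of 18 genes that sense mite products, 4 were called higher and 7 lower, with a median of -0.226. The share higher was close to the 20.6% over all tested genes. Tlr3, the receptor for double-stranded RNA, went from 24.7 and 25.9 CPM to 179.8 and 164 CPM (log2 fold change 2.76 ± 0.16, adjusted p = 4.81e-07), and the ATP-gated channel P2rx7 from 6.94 and 7.26 CPM to 27.1 and 21.9 CPM (adjusted p = 4.74e-05). Tlr2 rose from 7.45 and 6.61 CPM to 13.3 and 12.8 CPM (adjusted p = 0.000809). The endotoxin receptor genes fell, Tlr4 from 26.2 and 23.3 CPM to 16.6 and 12.3 CPM (adjusted p = 0.000842) and Cd14 from 483 and 421 CPM to 316 and 286 CPM (adjusted p = 0.00404), and so did the adaptor Myd88, from 56.7 and 51.7 CPM to 36.7 and 36.9 CPM (adjusted p = 0.00074). F2rl1, the protease-activated receptor PAR2, read 33.9 and 41.3 CPM in the naive libraries and 59.8 and 58.3 CPM in the HDM libraries (adjusted p = 0.126). It passed the threshold in 4 of 13 settings, and its adjusted p ranged from 9.65e-07 to 0.386. Fewer of the 18 were called lower without the first naive library or the second HDM library than with all libraries.

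Interferon-stimulated genes rose. Of 27 tested members, 19 were called higher and 1 lower, with a median of 1.10. By role, 14 of 19 effectors and 5 of 8 sensors and factors were higher. Ifit3, an antiviral RNA-binding protein, went from 10.4 and 11.3 CPM to 107 and 86.7 CPM (log2 fold change 3.16 ± 0.43, adjusted p = 0.000163), Isg15, the ubiquitin-like modifier, from 7.92 and 10.9 CPM to 44.6 and 30.3 CPM (adjusted p = 0.00139) and the guanylate-binding protein Gbp2 from 11.6 and 10.7 CPM to 34.8 and 31.1 CPM (adjusted p = 2.88e-05). Ddx58, the sensor RIG-I, went from 48.6 and 48.5 CPM to 118 and 89.2 CPM (adjusted p = 3.77e-05), and Bst2, which tethers viruses, from 23.2 and 26.7 CPM to 91.6 and 61.5 CPM (adjusted p = 0.000236). Mx1, a dynamin-like antiviral protein, went the other way, from 9.66 and 10.1 CPM to 2.95 and 2.70 CPM (log2 fold change -1.80 ± 0.23, adjusted p = 9.20e-05). Without both libraries numbered 2, 16 members were called higher. The promoter of Ifit3, chosen after its values were seen because it rose most in the list, is shown with the same motifs in capitals.
Ifit3, GRCm38 chr19:34583279-34583578, plus strand: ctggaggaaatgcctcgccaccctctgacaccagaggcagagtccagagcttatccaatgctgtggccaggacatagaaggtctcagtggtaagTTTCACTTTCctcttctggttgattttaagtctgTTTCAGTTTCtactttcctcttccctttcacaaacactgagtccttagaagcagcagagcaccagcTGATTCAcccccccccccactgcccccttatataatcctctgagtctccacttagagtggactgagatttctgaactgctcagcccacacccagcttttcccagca
It held 2 matches to the interferon response letters, both on the strand opposite to the gene, where the displayed strand reads TTTCACTTTC at 156 bases and TTTCAGTTTC at 122 bases before the start site. It also held 1 match to AP-1.

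**Figure D5:**
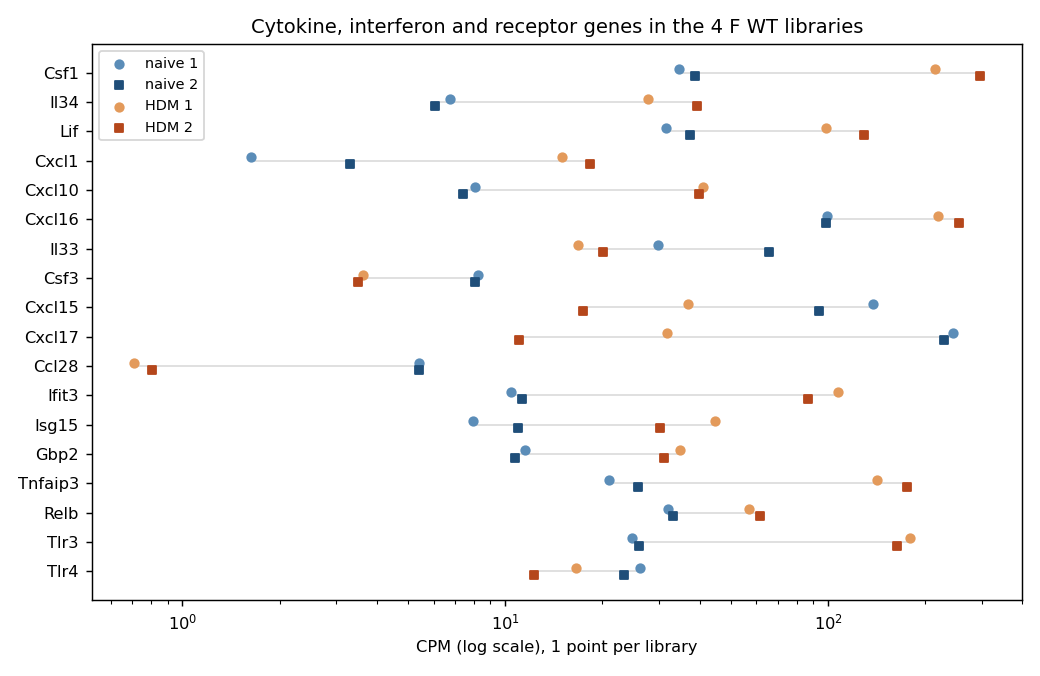
CPM (log axis) of 18 cytokine, interferon, NF-kB and receptor genes (rows), with 1 point for each of the 4 female WT libraries. Csf1, Il34 and Tlr3 are several times higher in both HDM libraries, whereas Il33, Cxcl17 and Tlr4 are lower.

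Immediate early genes and EGF receptor ligands rose in part. Of 22 immediate early and AP-1 genes, 10 were called higher and 1 lower, with a median of 0.474. Phlda1 went from 85.4 and 101 CPM to 303 and 340.4 CPM (adjusted p = 9.32e-05), Klf6 from 79.9 and 92.3 CPM to 176 and 201 CPM (adjusted p = 8.27e-05) and the phosphatase Dusp1 from 63.7 and 70.2 CPM to 179.8 and 192 CPM (adjusted p = 0.000172). The number higher was 5 without the first naive library and 6 without both libraries numbered 2. Of 14 EGF receptor genes, 6 were higher and 4 lower, with a median of 0.573. The ligand Hbegf read 16.2 and 28.4 CPM in the naive libraries and 64.7 and 77.8 CPM in the HDM libraries (adjusted p = 0.00656), which became 0.0671 without the first naive library, the highest over the settings. The feedback inhibitor Errfi1 went from 41.0 and 45.2 CPM to 128 and 162 CPM (adjusted p = 4.00e-05). The receptors Erbb2 and Erbb3 and the inhibitor Lrig1 fell, Lrig1 from 429 and 373 CPM to 90.5 and 112 CPM (adjusted p = 9.13e-07). The number higher was 3 without the first naive library.

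Genes of protein folding in the endoplasmic reticulum separated into chaperones and sensors. Of 13 chaperone genes, 11 were called higher and 1 lower, whereas 0 of 8 sensors and factors were higher and 4 were lower. The median of the 21 genes was 0.41. Hsp90b1, the chaperone GRP94, went from 452 and 502 CPM to 897 and 906 CPM (log2 fold change 0.92 ± 0.12, adjusted p = 0.000154), Calr, calreticulin, from 659 and 762 CPM to 1385 and 1349.6 CPM (adjusted p = 0.00145) and Manf from 84.9 and 93.5 CPM to 177 and 182 CPM (adjusted p = 2.75e-05). Xbp1, the transcription factor that serves secretory cells, went from 374 and 305 CPM to 156 and 152 CPM (log2 fold change -1.14 ± 0.22, adjusted p = 0.00162), and Atf4, the effector of the integrated stress response, from 385 and 392 CPM to 266 and 291 CPM (adjusted p = 0.000232). The chaperone-associated gene that fell was Herpud1, from 137 and 125 CPM to 62.9 and 55.6 CPM (adjusted p = 3.62e-06).

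Glutathione and antioxidant genes were lower more often than higher, with 11 of 27 called lower, 4 higher and a median of -0.400. Prdx6, a peroxiredoxin with phospholipase activity, fell from 1147 and 1035 CPM to 140.2 and 162 CPM (log2 fold change -2.85 ± 0.16, adjusted p = 3.96e-07), and Gclc, the rate-limiting enzyme of glutathione synthesis, from 578 and 642 CPM to 210.2 and 141 CPM (log2 fold change -1.80 ± 0.26, adjusted p = 0.000229). Nqo1, a target of NRF2, read 41.5 and 58.6 CPM in the naive libraries and 30.0 and 22.5 CPM in the HDM libraries (adjusted p = 0.0607). The number higher was 0 without the first naive library, the second HDM library or both libraries numbered 2. The number lower was 6 without the second HDM library and 7 without the second naive library.

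In proliferation genes 1 of 29 was called higher (3.45%) and 2 lower (6.9%), both below the 20.6% and 22.4% over all tested genes. Mki67, a marker of dividing cells, read 92.7 and 104 CPM in the naive libraries and 72.7 and 33.9 CPM in the HDM libraries (adjusted p = 0.0907). Without the first HDM library 9 were called lower, without any other single library 0, and with no filter on low counts 16. In glycolysis and hypoxia genes 3 of 22 were higher (13.6%) and 9 lower (40.9%). Those lower included Adm, the vasodilator adrenomedullin, from 15.5 and 16.3 CPM to 1.58 and 1.80 CPM (adjusted p = 1.95e-06), and Egln3, a prolyl hydroxylase, from 39.1 and 36.3 CPM to 5.24 and 5.16 CPM (adjusted p = 2.28e-05). Of 28 junction genes 6 were higher (21.4%) and 5 lower (17.9%), close to the 20.6% and 22.4% over all tested genes. Cldn4, a sealing claudin, went from 418 and 534 CPM to 1403 and 1536 CPM (adjusted p = 0.0025) and Gjb2, connexin 26, from 19.4 and 19.0 CPM to 4.79 and 5.87 CPM (adjusted p = 2.85e-06). The number of junction genes higher was 2 without the first naive or the first HDM library, and the number lower was 11 without the first HDM library. Of 22 cholesterol and fatty acid genes 8 were higher and 0 lower, among them Msmo1, from 36.2 and 45.9 CPM to 84.4 and 80.7 CPM (adjusted p = 0.00396), and the number higher was 1 without the first naive or the first HDM library and 4 without the second HDM library.

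Mitochondrially encoded mRNAs were looked at after the share of mitochondrial counts was seen. Of 13 tested, 12 were called higher and 0 lower, with a median log2 fold change of 1.90. mt-Co1, a cytochrome oxidase subunit, went from 2816 and 2511 CPM to 8985 and 10951 CPM (log2 fold change 1.90 ± 0.26, adjusted p = 0.000151) and mt-Nd4, a complex I subunit, from 344 and 296 CPM to 1171 and 1519 CPM (adjusted p = 0.000172). mt-Atp8, at 0.254 and 0.225 CPM (naive) against 0.375 and 0.805 CPM (HDM), was not called (adjusted p = 0.0611). Nuclear copies of several of these genes exist, so their separate levels are uncertain. Whether the rise in mitochondrial share bears on the other changes was not tested.

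Whether the HDM response of female WT cultures differed from that of other groups was tested with interaction terms in the same fit. For female WT minus male WT, 3866 genes (24.2%) were called. The difference of the log2 fold changes was positive in 1811 (11.3%) and negative in 2055 (12.8%). A negative difference can mean a larger fall in female WT cultures, as in Aldh1a1 (log2 fold change -4.96, difference -4.80), and not only a smaller rise. For female WT minus female KO, 1798 genes (11.2%) were called, 813 with a positive difference (5.08%) and 985 with a negative one (6.16%). Both tests share the female WT libraries with the main comparison. The first count was 2262 without the first female WT naive library and 2484 without the second HDM library. The second was 517, 1006 and 589 without the first naive, the second naive and the second HDM library. Csf1, picked after its values were seen, had a log2 fold change larger in female WT cultures by 2.78 than in male WT (adjusted p = 0.000162) and by 1.76 than in female KO cultures (adjusted p = 0.0074).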

How the data were processed

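Tracheal epithelial cultures of 8 groups (2 sexes, WT or LMAN1 KO, naive or HDM) with 2 libraries each were sequenced. The authors deposited raw whole-number counts per Ensembl gene for 16 libraries. The submitters' processing notes name Trimmomatic 0.36, STAR 2.5.2b, featureCounts (Subread 1.5.2) and DESeq2, with build GRCm38. The annotation release and the strand setting are not given in the sources used here. Of 49315 gene IDs, 49056 matched GENCODE M21 symbols. The counts of the other 259 made up 0.0106% of the total over all 16 libraries.

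Genes passing filterByExpr by group over all 16 libraries (15993) were fitted by group over the same libraries with TMM scaling. The test was edgeR's quasi-likelihood test (edgeR 4.0.16, limma 3.58.1, R 4.3.3), with Benjamini-Hochberg adjustment over all tested genes and a threshold of 0.05. The biological coefficient of variation was 0.142. Two-sided tests were used throughout. DESeq2 1.42.0, other scalings, filters and samples were alternatives. Tables and figures used Python 3.11.15, pandas 2.3.3 and matplotlib 3.10.9. The fits were tested on simulated data. Bounds on folds took 3 counts per library as the floor and cover counting error only.

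The text names the 12 genes with the largest change in each direction among called, non-overlapping protein-coding genes of mean log2 CPM of at least 3, up to 4 called members of smallest p in each list and direction, the cell type markers, and Lman1, Il33, Tslp and Il25. Further genes (such as Fn1, Vim, Cxcl10, Isg15, Calr, F2rl1, Inmt and the mitochondrial genes) were chosen after values were seen. All members and lists were chosen with earlier results of these data known. Promoters are RefSeq windows on GRCm38.p6, in which 11518 of 15990 tested symbols were found.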

Additional observations from a re-analysis of the deposited data

Results flagged for a closer look

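The HDM response of female WT cultures differed from those of male WT and of female KO cultures by a test of the difference itself. For female WT minus male WT, 3866 genes were called for the interaction of group and treatment in edgeR's quasi-likelihood test, and 2262 without the first female WT naive library. For female WT minus female KO, 1798 genes were called, and 517 without the same library. Each interaction rests on 2 cultures per group.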

How the results depend on the processing

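The number of called genes in female WT cultures was 6887. It was 6769 with DESeq2, 6870 with upper-quartile scaling, 7005 with library size alone, 6967 with no filter on low counts and 6150 with at least 10 counts in each library. Library size alone moved the median of all genes to -0.103, and 38.6% of its calls were higher against 47.9% with TMM. Calls of at least 2-fold numbered 2693, 1345 higher and 1348 lower. Leaving out 1 library at a time gave 4576 to 6264, and leaving out both female WT libraries numbered 2, an alternative added after seeing the data, gave 3612. The interaction counts ranged from 2262 to 3824 against male WT and from 517 to 2383 against female KO with 1 library left out, and the latter was 3029 with no filter. Of 221 named genes followed over 13 settings, 163 had the same call in every setting that gave a value, 52 lost a call in at least 1, 6 gained one and 1 reversed. That was the fibroblast gene Dcn, whose log2 fold change ranged from -0.0285 without HDM replicate 2 (adjusted p = 0.989 in edgeR's quasi-likelihood test) to 4.315 without HDM replicate 1. The cause was not tested. Genes under a stricter filter gave no value there.

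The labels do not say that a replicate number marks a shared pool. Deviations from the group means of same-numbered female WT libraries correlated at 0.286 over genes, against 0.437 in male WT, -0.0511 in female KO and -0.144 in male KO. With the replicate block 6313 genes were called in the 4 libraries alone (5885 without it) and 7298 over all 16. The interaction counts with the block over all 16 were 4429 and 2441. Within the compared libraries they were 4781 with and 2602 without it against male WT, and 1765 and 1910 against female KO. Depth limits the low genes: Tslp and Il25 could not be tested.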
